A study of Rattus norvegicus with 232 samples.

Results

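The features named U1 are 20 entries of a brain transcriptome that the authors reconstructed from rat RNA sequencing reads. They were chosen by that symbol in the annotation of processing version 5 (v5), whose table of reconstructed genes holds values for 99376 features. U1 is a small nuclear RNA (snRNA). With its proteins it forms the particle that recognises the 5′ splice site at the start of an intron, and in vertebrate cells it also protects nascent transcripts from early cleavage and polyadenylation. U1 is abundant in every nucleus, it is not polyadenylated, and it is encoded by many near-identical gene copies and pseudogenes, so reads from the copies are hard to tell apart. One of the 20 features, PRN6.5G0097225, was put forward because its strain differences in this same table were among the largest, so the v5 strain differences at its locus are given as a description.

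RNA came from brains of untreated, drug-naive rats of inbred strains, labelled whole brain and, where a sex is given, male. The study's methods describe adult animals and sequencing of a single hemisphere. They also split the RNA by length and made libraries from the long fraction. The levels here therefore need not measure the short U1 snRNA itself. The v5 table held 135 libraries of 45 strains with 3 animals each. Of these strains, 30 were recombinant inbred (20 HXB and 10 BXH), all derived from BN-Lx/Cub and SHR/OlaIpcv, which were present too, and 13 were other inbred strains: ACI/SegHsd, COP/CrCrl, DA/OlaHsd, F344/NCrl, F344/NHsd, F344/Stm, LE/Stm, LEW/Crl, LEW/SsNHsd, SHRSP/A3NCrl, SR/JrHsd, SS/JrHsd and WKY/NCrl. Version 7.1 added 29 strains with 69 animals, 1 to 3 a strain: 7 FXLE and 12 LEXF recombinant inbred strains, derived from F344/Stm and LE/Stm, and 10 other inbred strains, BDIX/NemOdaMcwi, BN/NHsdMcwi, BUF/MnaMcwi, FHH/EurMcwi, GK/FarMcwi, LH/MavRrrc, M520/N, MWF/Hsd, PVG/Seac and WAG/RijCrl. Animals of an inbred strain share nearly all of their genome, and no treatment or engineered allele separated the groups. The methods place the HXB/BXH family and its progenitors in a Prague colony and the other 13 strains of v5 with commercial suppliers. They describe storage in liquid nitrogen for the former and in RNAlater for the latter. Family, colony and storage thus cannot be told apart in v5. The source of the strains added in version 7.1 is not given in the sources used here.

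Levels are regularised log (rlog) values on a log2 scale, on which 1 unit is a change by a factor of 2, and the tables held no counts, so sequencing depth is unknown. Averaged over the markers found, neuronal, astrocyte and oligodendrocyte markers lay at 14.4 to 15.3, 13.8 to 15.3 and 14.9 to 16.5 in every library, as brain tissue would give. The mean of 3 liver markers was 8.00 in the median library and lay more than 3 above that in 5 libraries, the highest in LE/Stm animal 2. Its mean of 30.5 rests on 2 values over 30, and without them it was 16.2, still the highest. Across 49688 features, the library labelled F344/NCrl animal 2 followed SHRSP/A3NCrl (r of deviations 0.391) more than its own strain (0.0618), and the library labelled SHRSP/A3NCrl animal 1 followed F344/NCrl (0.391) more than its own (0.162). Both strains were low in the U1 models described here. The v5 table holds 37 values over 30, which were used as deposited, and no U1 value was among them.

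The label "gene copies" did not hold for most of the features. The 20 features carried 3 Ensembl identifiers. Of them, 18 lay on the plus strand of chromosome 6 under ENSRNOG00000054722, within 80162 bases (rn6, chr6:75571064-75651225). Of these, 17 all overlapped one another, and the remaining feature overlapped some of them. The other two were PRN6.5G0143160 on the minus strand of chromosome 10 (ENSRNOG00000055462, rn6, chr10:65247372-65288348) and PRN6.5G0223528 on the plus strand of chromosome X (ENSRNOG00000052961, rn6, chrX:44899650-44938652). Together they had 28 reconstructed transcripts, of which 0 were paired with an annotated transcript. Each had at least 2 exons, whereas an snRNA gene has a single short exon. The study's methods dropped isoforms below a minimum effective length, which exceeds the length of such a gene. A model of a single snRNA gene could therefore not be kept, and nothing is read from its absence.

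On chromosome 6, 17 of the 18 features shared 1 intron. In 25 transcripts an exon that ended near position 75590332 was joined to an exon that began near position 75614253, across an intron of 23831 to 23980 bases (median 23918). PRN6.5G0097225 was the plainest of these models, with an exon of 139 bases, an intron of 23920 bases and an exon of 151 bases. PRN6.5G0097230 added a further exon of 11 bases in each of its 3 transcripts. PRN6.5G0097213, PRN6.5G0097215 and PRN6.5G0097216 began upstream, with exons of 35, 41 and 11 bases before the shared pair. The rat RefSeq table lists 2 snRNA genes of 164 bases each beside each other on chromosome 6, LOC120093291 and LOC120093313, whose starts lie 24011 bases apart in its own build. The starts of the shared exons lie 24056 bases apart in rn6. These 17 features were thus alternative models over 1 pair of exons, and how the counting divided reads among them is uncertain. The 1 exception, PRN6.5G0097239, lay downstream of the shared exons (rn6, chr6:75623095-75628023) with 6 exons and 3062 exonic bases and lacked the shared intron. It lay within the spans of PRN6.5G0097229 and PRN6.5G0097230, and its last exon held the last exon of 1 PRN6.5G0097230 transcript. All 7 other features that overlapped the locus were models of Sptssa, a small subunit of serine palmitoyltransferase in sphingolipid synthesis, on the opposite strand.

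**Figure D1:**
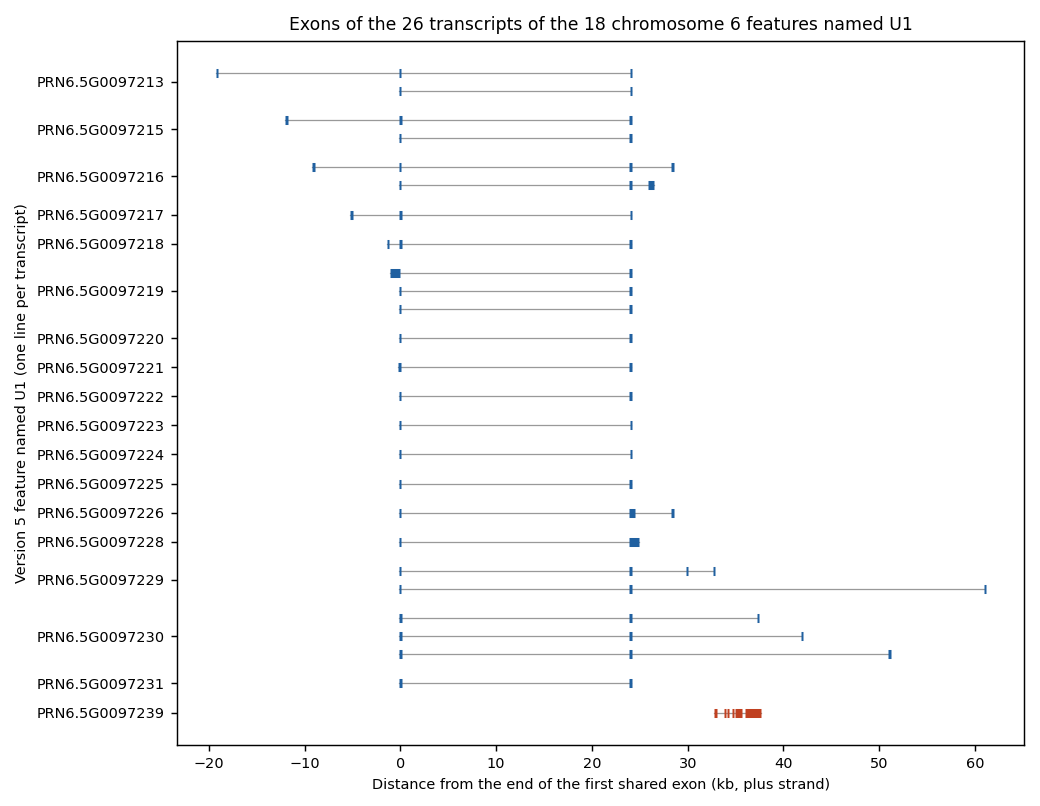
Exons (boxes, drawn at least 0.25 kb wide) and introns (lines) of the transcripts of the 18 chromosome 6 features, by distance in kb from the end of the first shared exon. All features but PRN6.5G0097239, in red at the bottom, hold the same pair of exons about 24 kb apart.

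The chromosome 6 features spanned a wide range of levels. PRN6.5G0097230 had the highest mean over animals, 13.96, followed by PRN6.5G0097231 with 13.11 and PRN6.5G0097219 with 12.93. The lowest were PRN6.5G0097218 with 2.63 and PRN6.5G0097221 with 3.46. The median over all features of the table was 3.71. PRN6.5G0143160 on chromosome 10 stood at 3.99 and PRN6.5G0223528 on chromosome X at 6.48. The scale is not divided by length, so these values do not rank the features by molecules.

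In 10 of the 18 chromosome 6 features the strain means fell into a low set and a high set, and the low set held the same 10 strains each time: ACI/SegHsd, DA/OlaHsd, F344/NCrl, F344/NHsd, LEW/Crl, LEW/SsNHsd, SHRSP/A3NCrl, SR/JrHsd, SS/JrHsd and WKY/NCrl. The gap between the sets was 1.05 to 4.21 on the log2 scale. The 10 features were PRN6.5G0097213, PRN6.5G0097215, PRN6.5G0097216, PRN6.5G0097217, PRN6.5G0097219, PRN6.5G0097222, PRN6.5G0097223, PRN6.5G0097225, PRN6.5G0097230 and PRN6.5G0097231. The high set held the 30 HXB/BXH strains, both progenitors, COP/CrCrl, F344/Stm and LE/Stm. These sets were read from the values themselves, so no test between them is given. They are reconstructions over the same exons and do not count as 10 separate observations.

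PRN6.5G0097225 showed the pattern animal by animal. Its level was 7.57, 7.44 and 8.23 in the 3 WKY/NCrl animals. It was 7.44, 7.43 and 7.77 in SHRSP/A3NCrl. It was 13.5, 12.6 and 11.9 in SHR/OlaIpcv, the third strain of this related trio. BN-Lx/Cub animals had 11.9, 11.6 and 13.0. COP/CrCrl animals had 14.2, 14.0 and 14.3, and LE/Stm animals had 14.9, 14.0 and 15.3. All 30 animals of the low strains lay between 7.43 and 8.50, and the other 105 animals lay between 11.6 and 15.4. The strain just below the gap was LEW/SsNHsd at 8.33 ± 0.15 (SD, n = 3), and the strain just above it was BN-Lx/Cub at 12.19. In some of the features with the gap, low animals crowded at the lowest value of the feature. In PRN6.5G0097225 11 of the 30 lay within 0.1 of it, and in PRN6.5G0097222 28 of the 30 did. In the remaining ones this ran from 1 of the 30 in PRN6.5G0097223 to 16 in PRN6.5G0097231. Without counts, few reads and no reads cannot be told apart in the low animals. Substrains of 1 name differed: F344/NCrl had 7.53 ± 0.16 and F344/NHsd 8.07 ± 0.02, whereas F344/Stm had 14.7 ± 0.48 (SD, n = 3 each). In the v5 table F344/Stm and LE/Stm were the only strains of sequencing batches 13 and 14, so strain and batch cannot be told apart in them.

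**Figure D2:**
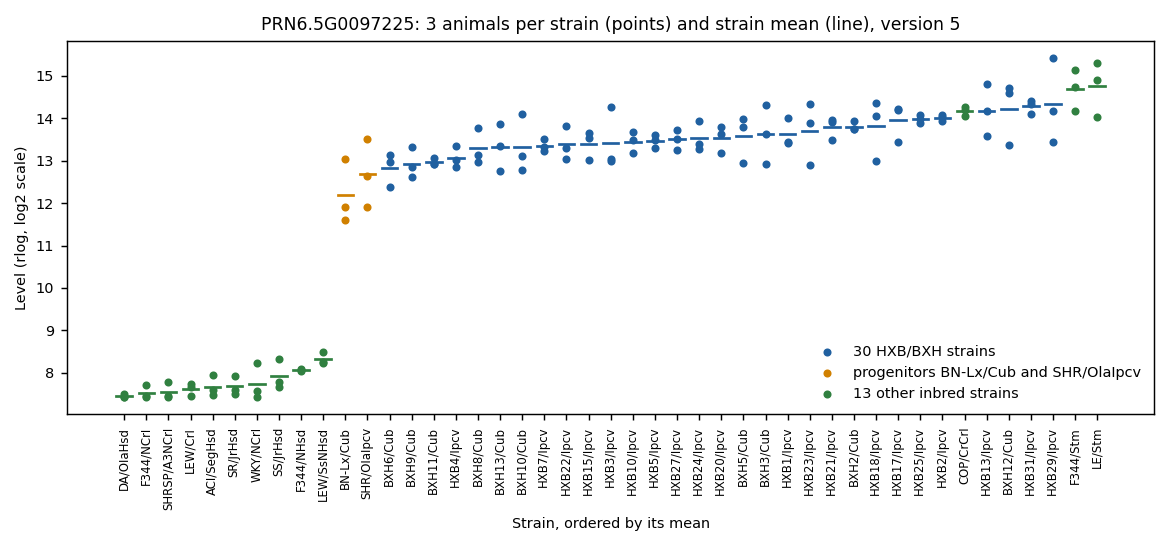
Level of PRN6.5G0097225 (rlog, log2 scale) in each of 3 animals per strain (points), with the strain mean (line), strains ordered by mean. The 30 animals of 10 strains lie between 7.43 and 8.50, and no animal lies between 8.50 and 11.6.

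Animals of the low and the high strains did not overlap in 6 of the 20 features, where the low strains lay below all others in 0.00704% of all features. As the sets were read from these features, nothing is taken from that share. In PRN6.5G0097219, whose longest transcript extends the first shared exon upstream, the low strains ran from 8.04 to 8.81 and the others from 12.3 to 16.1. In PRN6.5G0097222 they ran from 5.17 to 5.75 and from 7.20 to 14.1. In PRN6.5G0097216 the sets came close, from 5.96 to 7.63 and from 7.69 to 14.0, and in PRN6.5G0097215 from 8.27 to 10.5 and from 11.6 to 15.9. The ranges met in PRN6.5G0097230, where the low strains reached 11.8 and the lowest other animal, F344/Stm animal 3, also had 11.8. They met in PRN6.5G0097231 too, where the same animal had 7.95 against 15.1 and 14.4 in animals 1 and 2 of its strain. The upper edge of the gap in PRN6.5G0097231, at 12.5, is the mean of these 3 animals.

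The share of the variance between strains (R2, between-strain over total sum of squares) was 0.98 in PRN6.5G0097225 and in PRN6.5G0097219, 0.95 in PRN6.5G0097216 and 0.94 in PRN6.5G0097215 and in PRN6.5G0097230. The median over all features was 0.419. In the 10 features with the gap R2 ran from 0.578 to 0.979, and in the 8 other chromosome 6 features from 0.311 to 0.716. The F-test of limma over strains called 16 of the 20 U1 features at an adjusted p of 5%, all on chromosome 6, where 36.7% of all features were called. Since strain variance in this table put 1 of these models forward, nothing is read from that count. PRN6.5G0097218 and PRN6.5G0097220 were not called.

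The U1 models on chromosome 10 and X did not share the pattern. In PRN6.5G0143160 the strain means ran from 3.49 in LE/Stm to 4.68 in HXB10/Ipcv, with an R2 of 0.35 and a limma adjusted p of 0.419. Its animals had 4.06, 3.75 and 4.26 in SHR/OlaIpcv and 4.38, 4.05 and 3.72 in WKY/NCrl, which overlap. In PRN6.5G0223528 the means ran from 6.10 in HXB15/Ipcv to 6.88 in HXB10/Ipcv, with an R2 of 0.37 and a limma adjusted p of 0.349. Both R2 values were below the median of all features. At chromosome 6, PRN6.5G0097239 ran the other way in part: its strain means went from 4.61 in BXH12/Cub to 6.26 in F344/Stm, and WKY/NCrl animals had 5.51, 5.98 and 6.03 against 4.72, 4.89 and 4.26 in SHR/OlaIpcv. PRN6.5G0097229, whose models reach farthest downstream, had its highest strain means in F344/Stm and LE/Stm, with 11.6 ± 0.31 in F344/Stm and 12.9 ± 1.32 in LE/Stm (SD, n = 3 each), against a mean of 7.41 over all animals. Single animals of other strains overlapped these, up to 12.3 in HXB29/Ipcv, whose 3 animals ran from 3.66 to 12.3. In the v5 table these 2 strains made up all 6 libraries of batches 13 and 14 and had 0 libraries elsewhere, so here too strain and batch cannot be told apart.

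**Figure D3:**
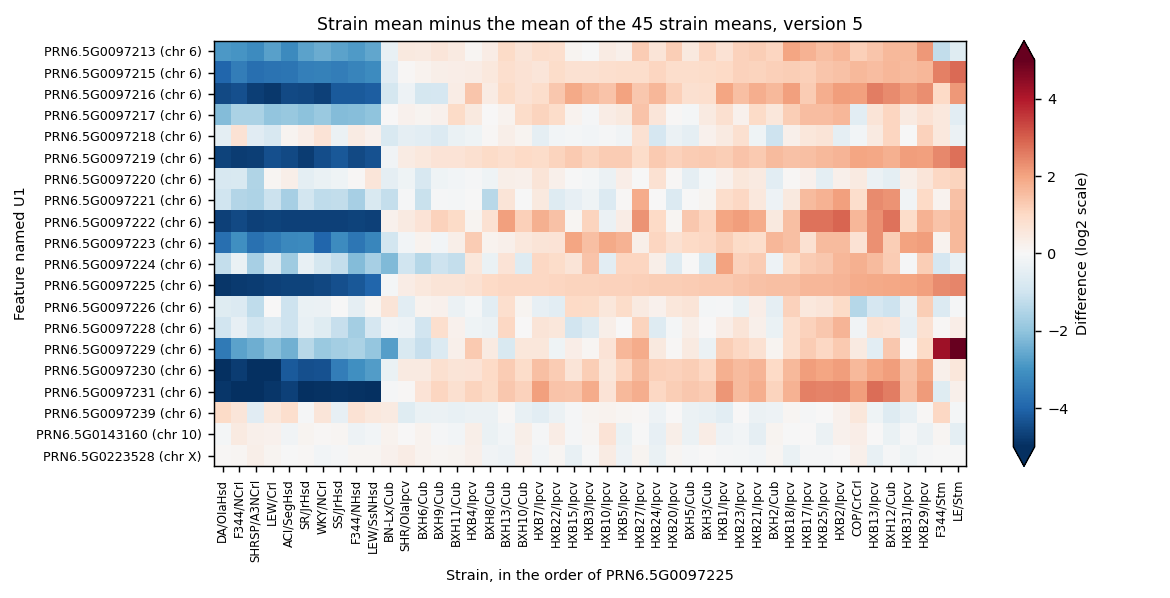
Mean of each of the 45 strains minus the mean over strains (colour, log2 scale, saturated beyond 5) for the 20 U1 features in rows, strains in the order of PRN6.5G0097225. The 10 strains at the left are low in 10 chromosome 6 rows, and the rows of PRN6.5G0143160 and PRN6.5G0223528 at the bottom are nearly flat.

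The batch in the labels moved with the split. The labels give a batch characteristic and a sequencing batch in the title, which differ for some libraries. By the batch characteristic, all 30 low libraries of the v5 table came from batches 8, 10 and 11. In batch 8, PRN6.5G0097225 had 7.43 to 7.94 in 8 libraries of low strains and 14.3 in the 1 COP/CrCrl library. In batch 10 it had 7.43 to 7.73 in 11 libraries of low strains and 13.1 to 14.2 in 6 libraries, of COP/CrCrl, BXH2/Cub, BXH5/Cub, BXH8/Cub, HXB29/Ipcv and HXB31/Ipcv. The v5 libraries of batch 11 were all of low strains, with 7.51 to 8.50 in 11 libraries. Both levels thus occurred within batches 8 and 10 of the batch characteristic. By the title's batch, COP/CrCrl was the only high strain that shared a batch with low strains. In batch 8 of the title it had 14.0 to 14.3, against 7.43 to 8.25 in 22 low libraries. In batch 9 of the title it had 14.2, against 7.43 to 8.50 in 5. The other 3 low libraries were in batch 11 of the title. The HXB/BXH libraries named above were in batch 7 of the title, which held no low library. With the batch characteristic removed first, R2 ran from 0.203 in PRN6.5G0097217 to 0.591 in PRN6.5G0097225 over the 10 features with the gap. The median of all features was then 0.362.

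Over the 45 strain means, Pearson's r between pairs of the 10 features ran from 0.87 to 0.998, with a median of 0.957 over 45 pairs. These correlations describe models that share exons, reads and libraries. Within the 30 HXB/BXH strains, where the low set is absent, the same pairs ran from -0.05 to 0.98 with a median of 0.653. Over all 136 pairs with the shared intron the median was 0.691 in 45 strains and 0.467 in the 30. PRN6.5G0097239 had a median r of -0.42 with the 17 others over 45 strains and 0.14 over the 30. The models on chromosome 10 and X followed each other more than they followed chromosome 6: their r was 0.573 over 45 strains and 0.654 over 30, against medians of -0.15 and -0.25 with the chromosome 6 models over 45.

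The HXB and BXH strains carry mosaics of the BN-Lx/Cub and SHR/OlaIpcv genomes, and a locus that differs between these progenitors would place the strains in 2 sets. PRN6.5G0097225 did not show such sets: the 30 strain means ran from 12.8 ± 0.40 in BXH6/Cub to 14.3 ± 1.00 in HXB29/Ipcv (SD, n = 3 each), the largest gap between neighbours was 0.222, and the pooled SD within strains was 0.473. Neighbours in that order did not differ beyond their spread. The limma contrast of the progenitors was not called either, with BN-Lx/Cub minus SHR/OlaIpcv at -0.50 ± 0.37 (SE, 95% interval -1.23 to 0.23). With animals left out it ran from -1.31 (without replicate 3 of each strain) to 0.05 (without replicate 1) and was never called. Neither shows that the progenitors are equal.

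All 30 HXB/BXH strain means lay above both progenitors in 5 of the 20 U1 features, where they did in 0.949% of all features: PRN6.5G0097215, PRN6.5G0097219, PRN6.5G0097223, PRN6.5G0097225 and PRN6.5G0097231. Within batches this held for PRN6.5G0097225 in batch 1, where all 14 HXB/BXH libraries (13.3 to 14.8) exceeded the 1 SHR/OlaIpcv library at 12.6. In batch 3 all 13 (12.4 to 14.3) exceeded both BN-Lx/Cub libraries, at 11.6 and 11.9. In batch 6 it held for 16 of 20, since the SHR/OlaIpcv libraries had 11.9 and 13.5. There PRN6.5G0097215 held in 15 of 20, PRN6.5G0097219 in 10, PRN6.5G0097223 in 6 and PRN6.5G0097231 in 17. In batches 1 and 3 these held in all 14 and 13, apart from PRN6.5G0097223 with 11 and 12. The third BN-Lx/Cub library, at 13.0, was in batch 4 with no HXB/BXH library. The pattern was not tested, as it was seen in these values.

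Among the 30 HXB/BXH strains limma called a strain effect in 4 of 20 U1 features, where 10.4% of all features were called. They were PRN6.5G0097216 (adjusted p = 6.44e-05), PRN6.5G0097226 (0.00753), PRN6.5G0097224 (0.0462) and PRN6.5G0097219 (0.048). With batch as a covariate 2 features were called, where 11.5% of all features were. With 1 replicate number left out 1 or 2 were called, where 4.01% to 5.52% of all features were. In PRN6.5G0097216 the lowest strains were BXH6/Cub at 9.94 ± 0.89 and BXH9/Cub at 9.97 ± 1.99 (SD, n = 3 each), separated from the next by 1.22. The BXH9/Cub animals had 7.69, 10.8 and 11.4, so that gap was smaller than the spread within this strain. R2 over these 30 strains ran from 0.126 to 0.651 over the 20 features, against a median of 0.371 for all features.

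Between the progenitors limma called 1 of 20 U1 features, where 2.1% of all features were called. This was PRN6.5G0097239, with 5.76, 5.28 and 5.96 in BN-Lx/Cub and 4.72, 4.89 and 4.26 in SHR/OlaIpcv. The animals did not overlap, and the difference was 1.04 ± 0.27 (SE, limma adjusted p = 0.0162). It was 1.17 with batch as a covariate and was then not called (limma adjusted p = 0.161). It was also not called without BN-Lx/Cub animal 1 or 3, or without SHR/OlaIpcv animal 3. PRN6.5G0097226 had a difference of 1.16 ± 0.54 that failed the correction (limma adjusted p = 0.464).

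SHR/OlaIpcv, WKY/NCrl and SHRSP/A3NCrl descend from a common Wistar stock, SHR and its stroke-prone relative SHRSP having been selected for high blood pressure and WKY kept as the normotensive strain. In v5 the U1 models of SHR/OlaIpcv differed widely from those of WKY/NCrl and SHRSP/A3NCrl, which were both low. The v5 libraries of SHR/OlaIpcv shared no batch with either strain, by either batch label. Within this trio strain and batch therefore cannot be told apart. For SHR/OlaIpcv minus WKY/NCrl, 9 of 20 features were higher in SHR/OlaIpcv, where 2.05% of all features were, and 1 was lower, where 1.6% were. The difference was 4.94 in PRN6.5G0097225 and 4.81 in PRN6.5G0097230 on the rlog scale. It was 3.45 in PRN6.5G0097215, where the 3 SHR/OlaIpcv animals had 13.8, 12.8 and 11.7 and the WKY/NCrl animals 9.89, 8.54 and 9.45. The feature that was lower was PRN6.5G0097239 at -1.21 ± 0.27. For SHR/OlaIpcv minus SHRSP/A3NCrl, 9 of 20 features were higher, where 0.243% of all features were, by 5.14 in PRN6.5G0097225 and 5.49 in PRN6.5G0097230. The related strains SS/JrHsd and SR/JrHsd, bred for salt sensitivity and resistance, were both low: 0 of 20 features were called between them by limma (0 at an unadjusted p under 0.05), where 0.644% of all features were. These contrasts use the strain differences that put the locus forward and share the SHR/OlaIpcv animals, so they are descriptions. Their sizes are differences from a low group, in some features near the lowest value of the feature, and are not measured folds.

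The transcript table of v5, with 133 of the libraries, gave the same picture per transcript for this contrast. There 11 of the 28 transcripts were higher in SHR/OlaIpcv than in WKY/NCrl and 1 was lower, where 4.5% of all transcripts were called. Between the progenitors limma called 2 of the 28 (lowest adjusted p = 0.0121), both higher in BN-Lx/Cub, where 2.0% of all transcripts were called. As PRN6.5G0097239 has 1 transcript, at least 1 of these was of another U1 model. The v5 table of Ensembl genes, with 132 libraries, lists ENSRNOG00000054722 as a single gene. Its difference was 3.07 for SHR/OlaIpcv minus WKY/NCrl, 3.09 for SHR/OlaIpcv minus SHRSP/A3NCrl, -0.86 for BN-Lx/Cub minus SHR/OlaIpcv and 0.02 for SS/JrHsd minus SR/JrHsd.

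The authors also deposited later reconstructions of these libraries, versions 6 and 7.1, in which no feature carries the symbol U1 or one of the 3 Ensembl identifiers. Transcripts beside Sptssa with an intron of the same length were matched instead, with introns of 23869 to 23921 bases in version 6 and 23883 to 23916 in version 7.1. This gave 3 features in version 6 and 5 with values in version 7.1. The split was absent there. In PRN7.6G0086942 of version 6 the strain means ran from 13.5 in BN-Lx/Cub to 16.1 in LE/Stm, with a largest gap of 0.558 and an R2 of 0.538. In PRN7.71G0112557 of version 7.1 they ran from 12.3 to 15.2, with a largest gap of 0.502 and an R2 of 0.504. LE/Stm is 1 animal there, the one with the highest liver markers in v5. Without it the means reached 15.5 and 14.7, both in HXB29/Ipcv, and the largest gaps were 0.431 and 0.419. WKY/NCrl, low in v5, had 15.8, 15.0 and 15.4 in PRN7.6G0086942, while the SHR/OlaIpcv animals shared with v5 had 14.6, 13.4 and 13.6. ACI/SegHsd had a mean of 15.0 there, COP/CrCrl 15.0, F344/NCrl 15.1, F344/NHsd 15.0 and F344/Stm 14.9. The substrains of F344 thus stood together in version 6 and far apart in v5.

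**Figure D4:**
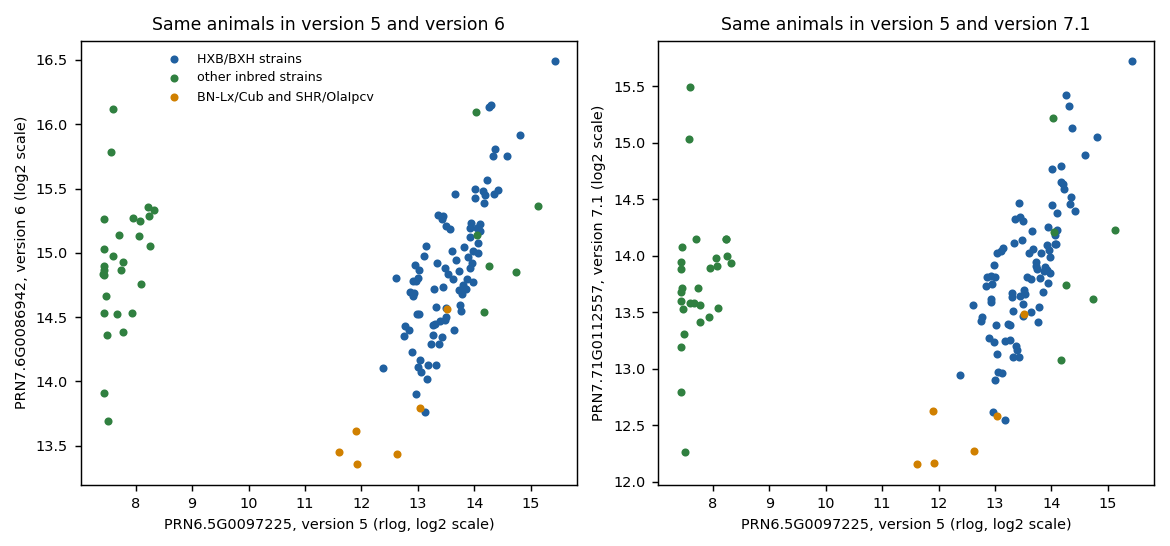
Level of PRN6.5G0097225 in v5 (x, rlog, log2 scale) against PRN7.6G0086942 of version 6 (left, y, log2 scale) and PRN7.71G0112557 of version 7.1 (right, y, log2 scale) in the 129 animals that all 3 versions hold. Animals at 7.43 to 8.50 in v5 spread over the levels of the others in both later versions, while the HXB/BXH animals keep a rising order.

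Over the 45 strains, r of the strain means between PRN6.5G0097225 and PRN7.6G0086942 was 0.094, and with PRN7.71G0112557 it was 0.182. Over the 30 HXB/BXH strains r was 0.818 and 0.761, and over all 8 matched features it ran from 0.036 to 0.818. Most animals are shared, with 129 in all 3 versions, and SHR/OlaIpcv has a further animal in the later ones. These values therefore do not come from separate samples. All 30 HXB/BXH strain means lay above both progenitors in the later versions too, in 2 of 3 matched features of version 6, where they did in 0.826% of all features, and in 2 of 5 of version 7.1, where they did in 0.77%. In PRN7.6G0086942 the progenitors had 13.5 and 13.8, and the HXB/BXH strains 14.4 to 15.5. Over the strains of v5 limma called a strain effect in 2 of 3 matched features of version 6, where 21.3% of all features were called, and in 4 of 5 of version 7.1, where 17.4% were. Over the HXB/BXH strains alone it called 0 of 3 (0 at an unadjusted p under 0.05), where 15.5% were, and 1 of 5, where 12.7% were.

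The contrast of SHR/OlaIpcv with WKY/NCrl had the other sign in the matched features of the later versions. These are other models: PRN6.5G0097225 is 1 of 17 v5 models over the shared exons, while PRN7.6G0086942 gathers several matched transcripts. SHR/OlaIpcv also has an animal in the later versions that v5 lacks. In version 6 it was -1.55 ± 0.37 in PRN7.6G0086942 (SE, limma adjusted p = 0.00868), and 2 of 3 matched features were called, both lower in SHR/OlaIpcv, where 3.89% of all features were called. In version 7.1 it was -1.63 ± 0.44 in PRN7.71G0112557 (limma adjusted p = 0.0341), and 2 of 5 were called, both lower, where 1.57% were. SHR/OlaIpcv minus SHRSP/A3NCrl was -0.43 in PRN7.6G0086942 (95% interval -1.17 to 0.31) and -0.41 in PRN7.71G0112557 (-1.29 to 0.46). Limma called 0 of 3 matched features for it in version 6 (0 at an unadjusted p under 0.05), where 0.244% of all features were called, and 0 of 5 in version 7.1 (1 at an unadjusted p under 0.05), where 0.0783% were. Between the progenitors limma called 0 of 3 and 0 of 5 (0 in both at an unadjusted p under 0.05), where 3.47% and 2.44% of all features were called. Why the versions differ was not tested, and the genome build of the later versions is not given in the sources used here.

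**Figure D5:**
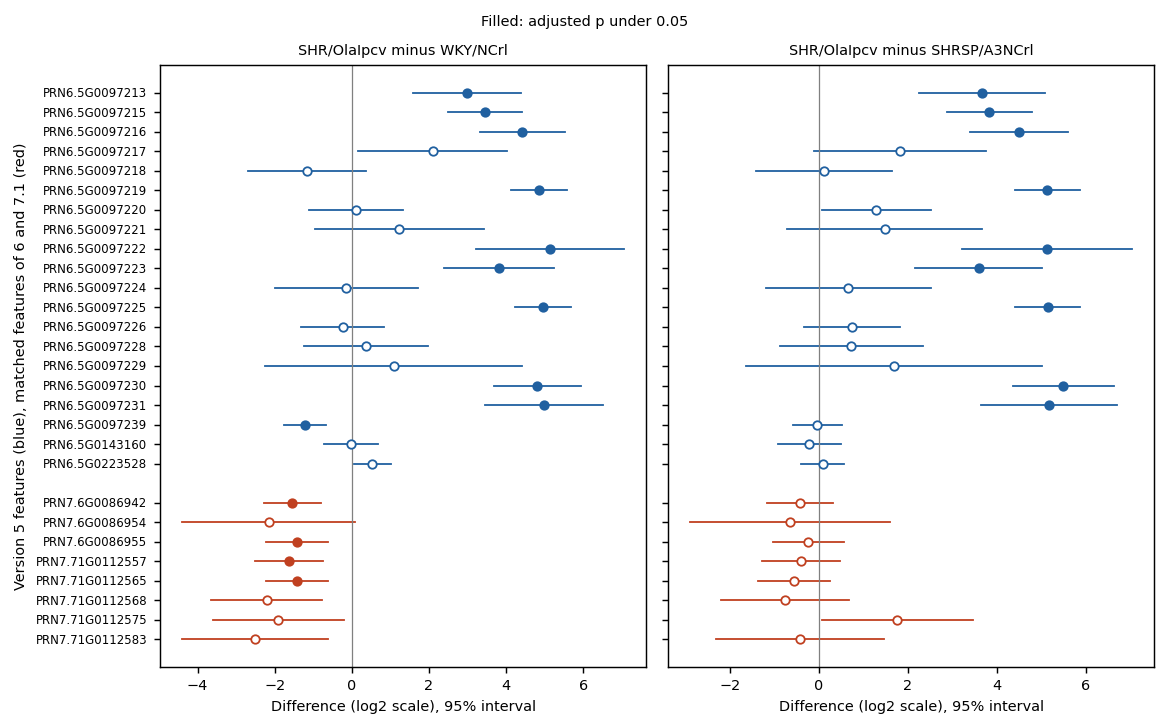
Difference (log2 scale, point) with its 95% interval (line) for SHR/OlaIpcv minus WKY/NCrl (left) and SHR/OlaIpcv minus SHRSP/A3NCrl (right) in the 20 v5 U1 features (blue) and the matched features of versions 6 and 7.1 (red), filled where the limma adjusted p was under 0.05. The v5 models with the gap lie at 2.98 to 5.49 where filled, while filled matched features, and PRN6.5G0097239 on the left, lie below 0.

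Version 7.1 added 29 strains, with 69 animals, that v5 does not hold and that played no part in choosing U1. Among them limma called a strain effect in 1 of the 5 matched features, where 4.41% of all features were called. This was PRN7.71G0112575 (adjusted p = 0.0411), whose strain means ran from 4.53 in MWF/Hsd to 9.33 in LEXF5/Stm. It was not called with any 1 replicate number left out, where 0.640% to 1.59% of all features were. Over all 74 strains of version 7.1, 3 of 5 were called, where 20.2% of all features were. In version 6, which held 25 animals of 13 strains outside v5, limma called 0 of 3 (0 at an unadjusted p under 0.05), where 1.45% were. PRN7.71G0112557, the match with the highest mean rlog value, ran from 12.9 in LEXF2B/Stm to 15.0 in LEXF5/Stm and was not called (limma adjusted p = 0.843). Of 19 features that version 7.1 names Rnu1, the standard symbol of a U1 gene, 6 had values. Limma called 1 of these 6 over the strains of v5, PRN7.71G0037424 (adjusted p = 0.0188), where 17.4% of all features were called, and 0 of 6 over the strains outside v5 (0 at an unadjusted p under 0.05). The one with the highest mean rlog value, PRN7.71G0046642, had strain means from 10.9 to 11.4.

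Among features with another symbol than U1, those whose strain means were most like the U1 models lay on other chromosomes. For PRN6.5G0097225 over 45 strains these were Sertad3 (r = -0.963), RGD1563294 (-0.961), Lmln (0.942), AABR07017110.1 (0.938) and LOC100365839 (0.933). Sertad3 encodes a SERTA-domain protein of transcriptional control and Lmln a leishmanolysin-like metallopeptidase. Sertad3 had 2.85 ± 0.59 in SHR/OlaIpcv, 7.80 ± 0.63 in WKY/NCrl, 7.26 ± 0.95 in SHRSP/A3NCrl and 2.73 ± 0.59 in COP/CrCrl (SD, n = 3 each), so it was high in strains where PRN6.5G0097225 was low. PRN6.5G0097216 had Phkg1, the catalytic subunit of muscle phosphorylase kinase (0.925), and Cd164l2 (0.920) among its nearest. The points share libraries and the same few inbred strains. Over the 30 HXB/BXH strains the r of PRN6.5G0097225 with its 5 nearest features was -0.17, -0.22, 0.03, 0.11 and 0.28. That of PRN6.5G0097216 was 0.677 with Phkg1 and 0.684 with Cd164l2, and -0.34, -0.19 and 0.22 with its other nearest features. The 50 features with the largest r in size to PRN6.5G0097225 over those 30 strains came from 16 chromosomes. Of them, 11 lay on chromosome 6, 8 of these at the locus, and 5 were U1 models that share its exons. For PRN6.5G0097219 and PRN6.5G0097216 the commonest chromosome was 10, with 11 and 10 of the 50. The share of chromosome 6 among all features was not counted, so nothing is read from these counts.

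Other RNAs and proteins of the splicing machinery were counted from lists by symbol. Of the other small nuclear and small non-coding RNAs, which include the U2, U4, U5 and U6 partners of U1 in the spliceosome, 311 features were found. A v5 strain effect was called by limma in 161 of them, where 36.7% of all features were called. For SHR/OlaIpcv minus WKY/NCrl, 3 were higher and 22 lower, where 2.05% and 1.6% of all features were, and the median difference was -0.23 against 0.06 over all features, the direction opposite to that of the U1 models in v5. The largest difference among the lower ones was in a U5 model, PRN6.5G0121371 (-4.36), with a mean level of 3.70. Lower too were U2 models PRN6.5G0145675 (-3.87) and PRN6.5G0133498 (-2.56) and U3 models PRN6.5G0144401 (-3.07) and PRN6.5G0144370 (-2.50). So were 7SK, which holds back the elongation factor P-TEFb (-1.29), and Terc, the RNA of telomerase (-1.38). The 3 higher ones were another U3 model, PRN6.5G0144379 (2.04), a U6 model, PRN6.5G0097138 (0.99), and SNORD116, PRN6.5G0016878 (2.41). Each of these families also had lower features, among them SNORD116 models PRN6.5G0016879 (-2.94) and PRN6.5G0016869 (-0.94) and a U6 model, PRN6.5G0056830 (-1.47). For BN-Lx/Cub minus SHR/OlaIpcv 10 were called, 4 of them higher and 6 lower, where 2.1% of all features were called. For SHR/OlaIpcv minus SHRSP/A3NCrl 2 were higher and 3 lower, where 0.243% and 0.283% of all features were. The U5 model PRN6.5G0121371 was among the lower ones (-5.23).

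No feature carried the symbols of the 3 proteins particular to the U1 particle, Snrnp70, Snrpa and Snrpc. Of the Sm core proteins, which form a ring on U1 and the other spliceosomal snRNAs, 8 features were found, and 5 had a strain effect, where 36.7% of all features did. One of them, Snrpe, was lower in SHR/OlaIpcv than in WKY/NCrl, with a difference of -3.46 ± 0.86 (SE, limma adjusted p = 0.00888), and higher in BN-Lx/Cub than in SHR/OlaIpcv, by 3.12 (limma adjusted p = 0.0277). Of 24 features of splicing factors that work with U1, 6 had a strain effect, where 36.7% of all features did. Limma called 0 of the 24 in the 4 pair contrasts (1 to 7 a contrast at an unadjusted p under 0.05), where 0.525% to 3.65% of all features were called. Of 121 features for snRNA transcription (the SNAPc and Integrator complexes and their partners), 35 had a strain effect, where 36.7% of all features did. In SHR/OlaIpcv against WKY/NCrl 4 were higher and 1 lower, where 2.05% and 1.6% of all features were, so these few calls are close to the background. Models of Ice2, a subunit of the little elongation complex that acts at snRNA genes, went both ways there, 3 of them higher and PRN6.5G0121815 lower (-1.82). Against SHRSP/A3NCrl 2 were lower in SHR/OlaIpcv, where 0.283% of all features were: PRN6.5G0121815 (-2.12) and Snapc4, of the SNAPc complex (-0.81). Limma called 2 between the progenitors, where 2.1% of all features were called, and 1 between SS/JrHsd and SR/JrHsd, where 0.644% were. Last were 17 features for the assembly of snRNA particles, which load the Sm ring and carry the RNA between nucleus and cytoplasm. Of these 6 had a strain effect, where 36.7% of all features did. Limma called 0 of the 17 in the 4 contrasts (0 to 3 a contrast at an unadjusted p under 0.05), where 0.525% to 3.65% of all features were called.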

How the data were processed

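Per the study's methods, RNA was split by length and the long fraction was used. Libraries were made from it with a stranded total RNA kit after depletion of ribosomal RNA. Later batches had multiple depletion washes, and the sequencer and read length varied. Versions here are those in the submitters' processing notes, from which the methods differ for RSEM. For v5 the authors trimmed reads (Cutadapt 1.9.1), removed ribosomal reads (Bowtie2 2.3.4.3), aligned to strain-specific rn6 genomes (HISAT2 2.1.0), assembled transcripts (StringTie 1.3.5), quantified them (RSEM 1.3.1), removed 1 factor of unwanted variation and applied the rlog of DESeq2, so the deposited values are on a log2 scale. Columns that hold single values over 30 are a deposited score on that scale. These values were kept, and setting them to missing was an alternative. Newer samples list Bowtie2 2.4.5, HISAT2 2.2.1, StringTie 2.2.1 and RSEM 1.3.3. No table gives counts, so the number of animals limits the precision.

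Strain, replicate and batch came from the labels. In versions 6 and 7.1, libraries that shared strain and replicate number were taken as 1 animal and averaged. Strain effects (moderated F) and contrasts were fitted with limma 3.58.1 in R 4.3.3 across all features of a table, with Benjamini-Hochberg adjustment over all features at 5%. Without records of separate litters, p-values measure the spread between these animals. Named in depth were the 5 U1 features with the highest R2, the 3 with the highest mean and those called between the progenitors, and for the former their 5 nearest features by r of strain means. The members and lists were chosen with earlier results of these data known, and examples from the lists and other features named for a single value were chosen after their values were seen. Within-strain pairs of libraries differed by a median of 0.292 to 0.618 per feature, so none was taken for a repeat. Alternatives were batch as a covariate, median centring, a replicate block, leaving out replicates and other tables. RefSeq gave names and the distance between snRNA genes only. No sequence of the U1 genes was used here.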

Additional observations from a re-analysis of the deposited data

How the results depend on the processing

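With the batch characteristic or the title's batch as a covariate, the count of U1 features called between BN-Lx/Cub and SHR/OlaIpcv fell from 1 to 0. Of all features 1.08% and 0.963% were then called. The count with a strain effect among the HXB/BXH strains went from 4 to 2, where 11.5% and 11.3% of all features were called. It was also 2 with each library centred on its median, where 10.1% were. Leaving out replicates gave 0 to 1 for the progenitors, 1 to 2 for HXB/BXH, 11 to 14 for the strain effect in v5 (16 with all), 8 to 10 for SHR/OlaIpcv minus WKY/NCrl, 6 to 9 for SHR/OlaIpcv minus SHRSP/A3NCrl and 0 for SS/JrHsd minus SR/JrHsd. With 1 replicate number left out, the shares of all features called were 1.06% to 2.41%, 4.01% to 5.52% and 12.2% to 21.8% for the first 3. They were 0.552% to 2.61%, 0.144% to 2.28% and 0.123% to 1.23% for the last 3. In the strains outside v5, the 1 matched feature of version 7.1 with a strain effect became 0 without any 1 replicate number, 0 in version 6 and 3 over all strains of version 7.1. Of all features 0.640% to 1.59%, 1.45% and 20.2% were then called, in that order. SHR/OlaIpcv minus WKY/NCrl was 4.94 in PRN6.5G0097225 but -1.55 in PRN7.6G0086942 of version 6 and -1.63 in PRN7.71G0112557 of version 7.1, with both called. The later features are other models, and SHR/OlaIpcv has a further animal in those versions. SHR/OlaIpcv minus SHRSP/A3NCrl went from 5.14 to -0.43 and -0.41, was not called there, and its intervals include 0, so a reversal is not shown; the cause was not tested. Over 4 strain pairs the correlation of the deviations of same-numbered animals ran from -0.42 to 0.12. So few pairs cannot show that the numbers carry no shared variation. A replicate block gave 16 features with a strain effect, 5 in HXB/BXH, 1 between the progenitors, 10 and 9 for SHR/OlaIpcv against WKY/NCrl and SHRSP/A3NCrl, 0 for SS/JrHsd minus SR/JrHsd and 1 in the strains outside v5. Of all features 42.0%, 14.1%, 2.22%, 4.48%, 0.582%, 0.799% and 3.73% were called, in that order. Without the block the first of these shares was 36.7%. The title's batch could not be fitted for SHR/OlaIpcv against WKY/NCrl or SHRSP/A3NCrl. The planned test of features named U1 in version 7.1 and its alternatives were not run, since no feature there carries that name. Without F344/NCrl animal 2, SHRSP/A3NCrl animal 1 and LE/Stm animals 2 and 3, 15 features had a strain effect and the other counts did not change. Of all features 36.2% then had a strain effect, and 10.4% had one in HXB/BXH. For the progenitors, SHR/OlaIpcv against WKY/NCrl and SHRSP/A3NCrl, and SS/JrHsd minus SR/JrHsd, 2.28%, 4.41%, 1.40% and 0.814% were called. Depth is unknown, so low models such as PRN6.5G0097218 cannot be told from background.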
